A study of Homo sapiens with 6 samples.

Results

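The numbered ZNF genes are human genes named ZNF followed by 1 to 3 digits and nothing else, most of which encode C2H2 zinc finger proteins. The count table held 449 of them among 24305 gene rows. Genes were taken when their mean raw count over the 6 libraries was at least 200, which left 198. A further 215 lay under 200 but had enough reads to be tested, and 36 had too few. The 198 genes all passed the filter on low counts. Their proteins, translated from GENCODE release 29 coding sequences, matched the C2H2 finger pattern in all but 7. This was read from the reference sequences of genes picked by symbol and not from the counts. The median was 9 fingers, and ZNF462 had the most with 33. A KRAB domain was matched in 62.

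The libraries were made from DU 145, a human prostate cancer line labelled as epithelial cells, which the series describes as lacking homologous recombination repair. The talazoparib group had 3 libraries of cells kept for 48 h in talazoparib, which blocks the DNA repair enzymes PARP1 and PARP2, and the control group had 3 libraries whose vehicle label reads "DMOS", taken here as the solvent DMSO. The dose behind the sequenced cells is not given in the labels, although the series design names several. DU 145 is a single line, and no label says that the replicates were separate cultures, so the p-values rest on a spread among libraries that could be purely technical.

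Total counts ran from 39443359 to 39585727 per talazoparib library and from 39123997 to 39545215 per control library. The epithelial keratins KRT8 and KRT18 were high in all 6 libraries, at 488 to 650 CPM, which are counts scaled to library size, whereas EPCAM lay between 4.45 and 6.54 CPM and CDH1 between 0.608 and 1.74 CPM. PTPRC, CD3E, COL1A2, DCN and LUM, which define leukocytes and fibroblasts, were at 0 in every library, and among the other markers looked at CD14 reached 2.20 CPM and COL1A1 2.96 CPM.

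C2H2 zinc fingers are short folds held together by a zinc ion that is gripped by a pair of cysteines and a pair of histidines. Fingers in a row read out a DNA sequence, and a conserved linker joins each finger to the next. Many of the proteins also carry a KRAB domain, which binds TRIM28; TRIM28 in turn brings the histone methyltransferase SETDB1, HP1 proteins and the NuRD complex, and silences retroelements and other targets. Other members act without KRAB, in transcription, RNA handling, ribosome assembly or mitosis, and many of the KRAB genes lie in clusters on chromosome 19.

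The sequences below show one linker and finger, 84 bases, from each of 6 members: the first 3 are from genes lower with talazoparib, and the last 3 from genes higher with it. They are the coding strand in GRCh38, taken from a single exon each, and capitals mark the codons of the zinc-binding cysteines and histidines. They are shown because the same protein fold was written in bases of different GC content, the property that the fold changes ran with.
ZNF121: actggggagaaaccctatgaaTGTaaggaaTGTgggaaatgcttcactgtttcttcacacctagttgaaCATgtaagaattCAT
ZNF621: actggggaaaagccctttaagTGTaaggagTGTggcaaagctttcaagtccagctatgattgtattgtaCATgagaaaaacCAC
ZNF22: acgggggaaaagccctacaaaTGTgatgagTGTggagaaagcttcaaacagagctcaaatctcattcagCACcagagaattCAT
ZNF408: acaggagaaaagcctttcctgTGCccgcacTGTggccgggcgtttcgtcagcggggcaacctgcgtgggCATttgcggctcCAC
ZNF48: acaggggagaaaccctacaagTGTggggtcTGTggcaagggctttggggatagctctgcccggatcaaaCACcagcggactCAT
ZNF416: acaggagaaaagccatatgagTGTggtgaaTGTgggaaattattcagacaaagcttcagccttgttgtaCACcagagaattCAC
The unit of ZNF121 lay at chr19:9566531-9566614 on the minus strand in exon 6 of 6, and that of ZNF621 at chr3:40532290-40532373 on the plus strand in exon 5 of 5. The unit of ZNF22 lay at chr10:45003684-45003767 on the plus strand in exon 2 of 2. The unit of ZNF408 was at chr11:46705171-46705254 on the plus strand in exon 5 of 5, that of ZNF48 at chr16:30397653-30397736 on the plus strand in exon 3 of 3, and that of ZNF416 at chr19:57572692-57572775 on the minus strand in exon 4 of 4. GC made up 39.3%, 41.7% and 44.0% of the units of ZNF121, ZNF621 and ZNF22. It made up 64.3% and 57.1% of those of ZNF408 and ZNF48. The unit of ZNF416, at 41.7% GC, was unlike these; this gene passed the count limit only through its talazoparib libraries. The pair with most bases in common, ZNF22 and ZNF416, shared 59 of 84 bases and 19 of 28 residues, although one gene was lower with talazoparib and the other higher. A unit of this kind was found in 114 members; its median GC content was 64.9% in 17 members called higher, 43.6% in 53 called lower and 52.2% in 44 not past the test.

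With talazoparib, more of the numbered ZNF genes were lower than higher. Of the 198 genes, 45 were higher, 83 were lower and 70 did not pass edgeR's quasi-likelihood test at a Benjamini-Hochberg adjusted p under 0.05. Among all 14452 genes tested, 26.8% were higher and 29.9% lower. Among the 10086 of them with a mean count of at least 200, 32.1% were higher and 34.4% lower, which is the nearer comparison for these genes, at 22.7% higher and 41.9% lower. The median log2 fold change, talazoparib over control, was -0.20 over the 198 genes and 0.00 over all genes tested. The range was wider below than above, from -2.13 to 0.67, and 24 members were at least 2-fold lower while none was 2-fold higher. The whole table leaned the same way: of the 10086 genes, 904 were at least 2-fold lower and 94 at least 2-fold higher. Of the 24 members, 9 had a talazoparib mean under 200 counts and so passed the count limit through their control libraries. Among the 177 members whose mean was at least 200 in each group, 44 were higher and 67 lower, and 15 were at least 2-fold lower. Lower calls no longer outnumbered higher calls when the trend over gene length alone was removed: 56 members were then higher and 53 lower. Calls over all genes also leaned to higher in that fit, with 3972 higher and 3372 lower of 13694.

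The 3 talazoparib libraries all lay above the 3 control libraries for 53 members and all below them for 92, where 31.6% and 32.8% of all genes tested did so. Of the 128 members called, 95 kept their call when any one library was left out, among them 24 of the 45 higher and 71 of the 83 lower. The number called higher was 26 without control library 2 and 24 without control library 3. In bulk RNA of one cell line, fewer cells making a transcript and less of it per cell cannot be told apart.

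Together the 198 genes took 0.474%, 0.468% and 0.470% of all counts in talazoparib libraries 1 to 3, against 0.512%, 0.560% and 0.554% in control libraries 1 to 3. The 3 talazoparib libraries lay below all 3 control libraries, and control library 1 lay nearest to them. Levels were modest. Mean FPKM, which divides by a length per gene, ran from 0.286 to 62.0 with a median of 3.15, against 3.87 over all genes tested. For 155 of the 198 genes the length used was longer than the longest GENCODE transcript, so FPKM compares genes only roughly. ZNF593, a short gene whose yeast counterpart acts in assembly of the large ribosomal subunit, had the highest mean FPKM.

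Just above the count limit lay ZNF677, ZNF234 and ZNF627, with mean counts of 200.2, 200.7 and 204.8, and just under it ZNF268, ZNF211 and ZNF70, with 196.8, 196.7 and 192.8. The log2 fold changes were -0.30, -1.04 and -0.30 for the first 3 genes and -0.48, -0.24 and -0.17 for the last 3. The limit used the mean of both groups, so 20 members had a talazoparib mean under 200 and entered through their control libraries, and 16 of those were called lower. Only ZNF416 entered through its talazoparib libraries, and it was called higher.

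The 8 lowest fold changes among members whose groups did not overlap belonged to ZNF507, ZNF121, ZNF638, ZNF644, ZNF621, ZNF652, ZNF22 and ZNF146. ZNF507, on chromosome 19 at 32345594 to 32387667 (GRCh38, plus strand), had 5.23, 5.29 and 5.17 CPM in the talazoparib libraries, against 15.6, 25.2 and 27.7 CPM in the control libraries. The talazoparib libraries were tightly grouped and far under control library 1, the lowest of its group. Its log2 fold change was -2.13 ± 0.19 (SE; adjusted p = 1.26e-05). ZNF121, on the same chromosome at 9560353 to 9584533 (minus strand), had 8.85, 6.94 and 9.10 CPM with talazoparib, against 25.6, 39.8 and 39.9 CPM in control. It again showed control library 1 closest to the treated libraries, and its log2 fold change was -2.08 ± 0.18 (adjusted p = 1.11e-05).

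ZNF638, which recruits the HUSH silencing complex to unintegrated retroviral DNA, had 7.58, 4.31 and 6.31 CPM with talazoparib, against 17.9, 29.1 and 28.3 CPM in control. Talazoparib library 2 was the lowest of the 6, the groups did not overlap, and the log2 fold change was -2.05 ± 0.22 (adjusted p = 3.29e-05). ZNF644, a partner of the H3K9 methyltransferases EHMT1 and EHMT2, had 4.11, 1.59 and 3.85 CPM with talazoparib, against 8.25, 9.78 and 10.8 CPM in control. Here too talazoparib library 2 stood lowest, and the log2 fold change of -1.59 ± 0.28 had the largest error of the 8 (adjusted p = 0.000596). The talazoparib mean of ZNF644 was under 200 counts, so this gene passed the count limit only through its control libraries.

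ZNF652, which binds the co-repressor CBFA2T3, had 7.52, 6.59 and 7.15 CPM with talazoparib, against 16.8, 22.7 and 22.4 CPM in control (log2 fold change -1.54 ± 0.14, adjusted p = 1.12e-05). ZNF621 averaged 10.4 ± 0.748 CPM with talazoparib, against 30.5 ± 5.90 CPM in control (SD, n = 3 each). ZNF22 averaged 8.65 ± 2.21 CPM with talazoparib, against 23.6 ± 2.99 CPM in control. ZNF146, a protein made up almost wholly of fingers, averaged 16.4 ± 3.83 CPM with talazoparib, against 44.5 ± 7.24 CPM in control. These last 3 genes had log2 fold changes of -1.55, -1.45 and -1.44, and in none of them did a talazoparib library reach a control library. The 8 genes had transcripts of 37.3% to 44.1% GC.

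The 8 highest fold changes by the same rule were ZNF358, ZNF76, ZNF408, ZNF688, ZNF524, ZNF48, ZNF622 and ZNF416, all under 2-fold. ZNF358, on chromosome 19 at 7515292 to 7521026 (plus strand), had 116, 114 and 108 CPM with talazoparib, against 77.1, 66.9 and 68.5 CPM in control. All 3 talazoparib libraries stood well above control library 1, the highest control, and the log2 fold change was 0.67 ± 0.08 (adjusted p = 4.16e-05). ZNF76, a paralogue of ZNF143 that activates small nuclear RNA genes, had 64.0, 70.2 and 59.2 CPM with talazoparib, against 46.2, 39.1 and 41.0 CPM in control. Talazoparib library 2 was its highest and control library 2 its lowest, and the log2 fold change was 0.62 ± 0.10 (adjusted p = 0.000201). ZNF408, mutated in inherited retinal disease, had 22.8, 25.5 and 20.3 CPM with talazoparib, against 16.3, 13.1 and 15.5 CPM in control (log2 fold change 0.61 ± 0.13, adjusted p = 0.00145). ZNF524, which binds telomere repeats, had 13.8, 13.9 and 13.7 CPM with talazoparib, against 10.4, 9.12 and 8.66 CPM in control (log2 fold change 0.56 ± 0.13, adjusted p = 0.0024). In both genes the groups did not overlap.

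ZNF622, a factor in maturation of the large ribosomal subunit, averaged 48.1 ± 3.01 CPM with talazoparib, against 33.2 ± 4.91 CPM in control (log2 fold change 0.54 ± 0.11). ZNF48 averaged 58.6 ± 3.81 CPM with talazoparib, against 39.9 ± 4.03 CPM in control, and ZNF688 averaged 17.6 ± 0.672 CPM with talazoparib, against 11.5 ± 1.10 CPM in control. ZNF416, a KRAB protein with 11 fingers, was the least expressed of the 8, with 6.09, 7.31 and 6.08 CPM with talazoparib, against 4.90, 4.36 and 4.33 CPM in control. Its log2 fold change was 0.52 ± 0.16 (adjusted p = 0.0128), with a control mean under the count limit, and the call was lost without talazoparib library 2 (0.43), control library 2 (0.46) or control library 3 (0.45).

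**Figure D1:**
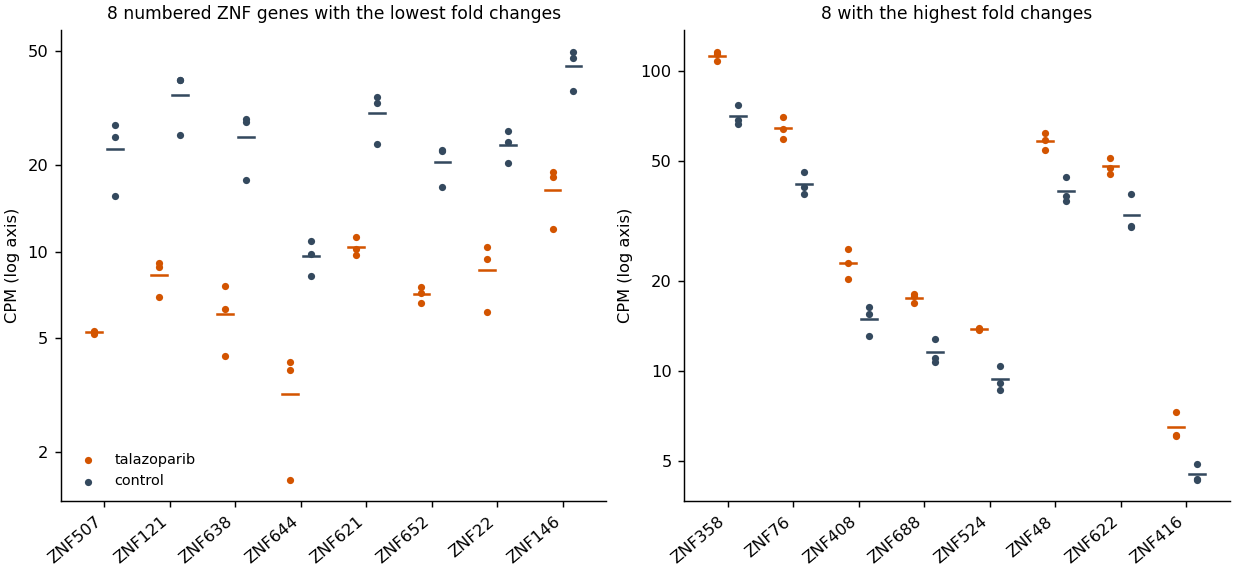
CPM (log axis) of the 8 members with the lowest fold changes (left) and the 8 with the highest (right), with 1 point per library, talazoparib left of control, and a bar at each group mean. No talazoparib point overlaps a control point for these 16 genes, which were picked for that; ZNF507 stands at 5.17 to 5.29 CPM with talazoparib, against 15.6 to 27.7 CPM in control.

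The most expressed members by CPM were ZNF664, ZNF207, ZNF106 and ZNF687. ZNF664 had 94.3, 85.3 and 108 CPM with talazoparib, against 148, 193 and 189.6 CPM in control (log2 fold change -0.88 ± 0.11, adjusted p = 8.28e-05). ZNF106, an RNA-binding protein, had 77.1, 66.6 and 73.9 CPM with talazoparib, against 127, 156 and 162 CPM in control (log2 fold change -1.03 ± 0.10, adjusted p = 1.29e-05). Both fell in all 3 talazoparib libraries with no overlap. ZNF687, which forms a complex with ZNF592 and ZMYND8, had 114, 121 and 111 CPM with talazoparib, against 109, 99.3 and 107 CPM in control. The log2 fold change of 0.13 ± 0.08 did not pass (adjusted p = 0.153), although the lowest talazoparib library was above the highest control library.

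The direction of change ran with GC content. Over the 198 genes the log2 fold change had a Pearson correlation of 0.765 (Spearman 0.808) with the GC content of the longest GENCODE transcript and of -0.528 (Spearman -0.561) with log2 length; these are descriptions across genes that share libraries, depth and base composition, not tests. With the number of fingers the correlation was -0.151. Members called higher had a median GC content of 61.7% and a median deposited length of 3464 nt, whereas members called lower had 43.5% and 7446 nt. The members not past the test lay between them in GC content, at 51.2%, with 4272 nt. At the third position of codons, which often does not alter the residue, the median GC content was 79.0% in members called higher and 44.2% in members called lower.

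In the lowest 4 deciles of GC content (30.2% to 46.5%), none of 78 members was higher and 58 were lower, and their median log2 fold change was -0.68. Of the 5400 other genes in these deciles 3.59% were higher and 61.0% lower (median -0.55). The other genes, here and in later comparisons by GC content, length or chromosome, include tested genes with a mean count under 200. In the middle 3 deciles (46.5% to 55.9%), 6 of 59 members were higher and 24 lower (median -0.20), against 26.8% higher, 19.2% lower and a median of 0.08 in the 4049 other genes. In the highest 3 deciles (55.9% to 75.3%), 39 of 61 members were higher and 1 was lower (median 0.35); of 4047 other genes 60.8% were higher and 2.05% lower (median 0.38). The shift from lower to higher with GC content was thus seen in members and in other genes. In the middle deciles, however, members leaned to lower and other genes to higher. With the trend over GC content and length removed, 9 of these 59 members were higher and 20 lower (15.3% and 33.9%). Of the other genes in the middle deciles 22.6% and 21.5% were then called. The 39 higher members of the highest 3 deciles became 22 without control library 2 and 21 without control library 3.

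Length ran the same way with the opposite sign. Among members in the longest 2 deciles of deposited length 2 of 56 were higher and 44 lower. Of the other genes in these deciles 8.8% were higher and 58.7% lower. In the shortest 4 deciles 20 of 42 members were higher and 3 lower, against 40.9% and 12.5% of other genes. Members and other genes thus both shifted with length. ZNF142, with a GC content of 57.7% and 31 fingers, was the one lower member of the highest GC deciles, at 44.0, 39.5 and 34.7 CPM with talazoparib, against 51.4, 52.5 and 50.2 CPM in control (log2 fold change -0.38 ± 0.10, adjusted p = 0.00482). ZNF416 had the lowest GC content of the members called higher, at 49.0%. ZNF142 was named after its values were seen.

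**Figure D2:**
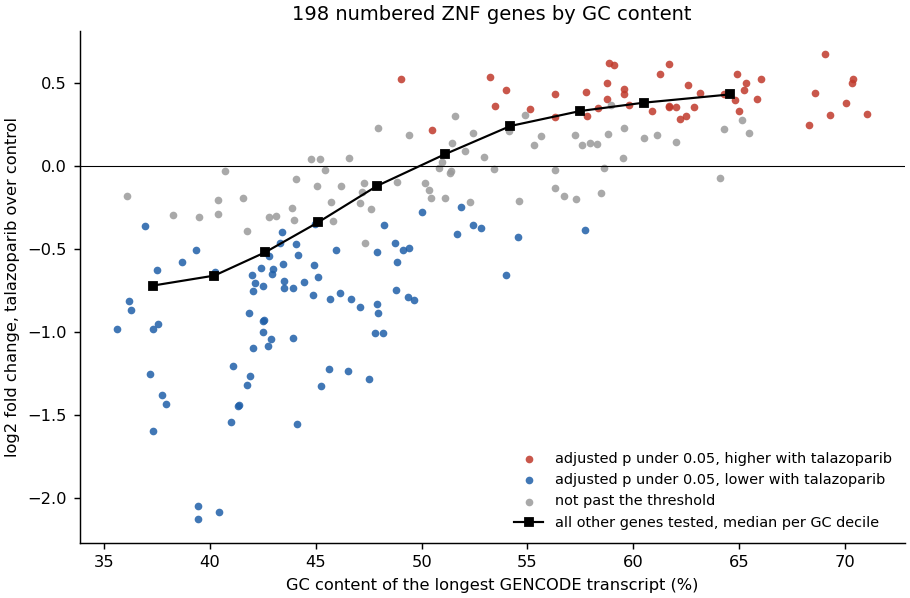
Log2 fold change, talazoparib over control, of the 198 numbered ZNF genes against the GC content of their longest GENCODE transcript (%), coloured by edgeR call, with the other genes' median per GC decile. Members called lower sit mainly at low GC content (median 43.5%) and members called higher at high GC content (median 61.7%).

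The same ordering appeared library by library, which also shows that the libraries of a group were not alike. For the 66 members of lowest GC content (35.6% to 45.0%), the median deviation of log2 CPM from each gene's mean was -0.32, -0.52 and -0.24 in talazoparib libraries 1 to 3, against 0.17, 0.46 and 0.41 in control libraries 1 to 3. For the 66 of highest GC content (54.6% to 71.1%) it was 0.16, 0.26 and 0.07 with talazoparib, against -0.06, -0.22 and -0.18 in control. Talazoparib library 2 and control library 2 lay farthest apart in both sets, and talazoparib library 3 and control library 1 lay nearest to each other. Other genes in the same range of low GC content gave medians of -0.28, -0.48 and -0.14 with talazoparib, against 0.17, 0.39 and 0.35 in control. The 66 members of middle GC content (45.0% to 54.5%) were at -0.11, -0.07 and -0.18 with talazoparib, against 0.11, 0.16 and 0.15 in control. Other genes of that middle range lay between -0.03 and 0.02 in all 6 libraries. Whether the cells or the making of the libraries gave rise to this dependence on GC content was not tested.

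**Figure D3:**
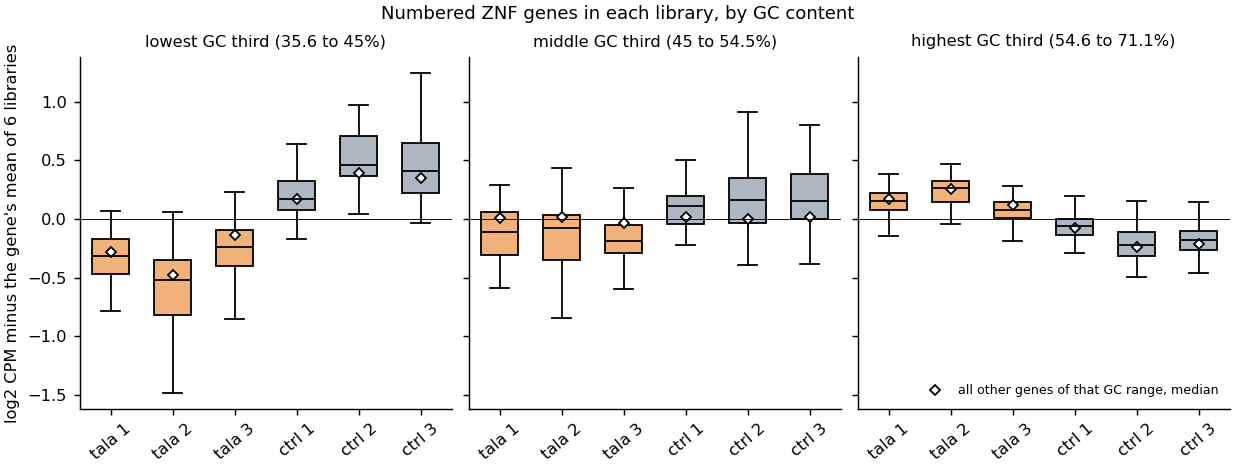
Deviation of log2 CPM from each gene's mean over 6 libraries, for the members split into 3 equal sets by GC content, with talazoparib libraries left of control libraries; boxes are quartiles with the median, whiskers reach the last gene within 1.5 interquartile ranges (genes beyond are not drawn), and diamonds are medians of other genes in the same GC range. In the set of lowest GC content the talazoparib medians are -0.24 to -0.52 and the control medians 0.17 to 0.46, and in the set of highest GC content the order is turned round.

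When each library's trend over GC content and length was removed, 30 members were higher and 56 lower (15.2% and 28.3%), where 22.0% and 22.2% of the 13694 genes with both values were called, and 25.6% and 26.1% of those with a mean count of at least 200. The median log2 fold change of the members was then -0.10. The number called higher was 20 without control library 2 and 19 without control library 3, and the number called lower was 34 without control library 3. With the trend over length alone removed, 56 members were higher and 53 lower, and the median was 0.02, against 0.05 over all genes. Of the 13694 genes in that fit, 3972 were higher and 3372 lower. The correlation of the trend-removed fold changes with GC content was 0.0913. Of the 83 members called lower, 42 stayed lower, 38 were no longer called and 3 became higher; of the 45 called higher, 10 stayed higher, 33 were no longer called and 2 became lower. A further 17 members were called higher and 12 lower only with the trend removed. The offset takes out whatever ran with GC content and length, a response of the cells included.

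Among the 8 lowest members the fall was smaller with the trend removed, and all 8 stayed past the threshold. They include ZNF644, which entered through its control libraries. ZNF121 had a trend-removed log2 fold change of -1.29 ± 0.11 (adjusted p = 6.71e-06), ZNF507 of -1.27 ± 0.16 (adjusted p = 0.000105) and ZNF638 of -1.26 ± 0.15 (adjusted p = 0.000105). ZNF22, at -1.04 ± 0.12, was lowest after these, and ZNF652, at -0.60 ± 0.09, showed the smallest fall of the 8. Among the 8 highest, ZNF416, which entered through its talazoparib libraries, was at 0.51 ± 0.13 (adjusted p = 0.00904), ZNF76 at 0.26 ± 0.06 (adjusted p = 0.00513), ZNF622 at 0.22 ± 0.08 (adjusted p = 0.0341) and ZNF358 at 0.15 ± 0.05 (adjusted p = 0.0289). ZNF408, ZNF688, ZNF48 and ZNF524 no longer passed, with values of 0.13, 0.17, 0.15 and -0.02.

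A total of 5 members were called in opposite directions by the 2 fits. ZNF207, also known as BuGZ, a partner of the spindle checkpoint protein BUB3, had 118, 109 and 111 CPM with talazoparib, against 139, 149 and 147 CPM in control. The groups did not overlap and its log2 fold change was -0.36 ± 0.07 (adjusted p = 0.00122), but 0.70 ± 0.12 with the trend removed (adjusted p = 0.00235); its GC content was 36.9% and its deposited length 13740 nt. ZNF141 had 5.94, 5.98 and 5.73 CPM with talazoparib, against 7.79, 10.1 and 9.37 CPM in control, and ZNF248 had 9.03, 8.27 and 8.62 CPM with talazoparib, against 11.4, 13.8 and 11.6 CPM in control. Neither gene's groups overlapped; both are of low GC content, with deposited lengths of 17033 and 12198 nt, and they were at -0.63 and -0.51, and each at 0.49 with the trend removed. ZNF593 had 44.5, 47.8 and 41.4 CPM with talazoparib, against 39.6, 30.1 and 35.1 CPM in control, with no overlap. It was at 0.35 ± 0.11, but at -0.32 ± 0.06 with the trend removed, and at 638 nt it was the shortest of the 198. Its first value no longer passed without control library 2 (0.22) or control library 3 (0.32). ZNF672 was at 0.28 ± 0.09 and at -0.15 ± 0.06; its first call was lost without talazoparib library 1, control library 2 or control library 3 (0.28, 0.20 and 0.23). The direction of these 5 genes therefore depended on the trend.

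**Figure D4:**
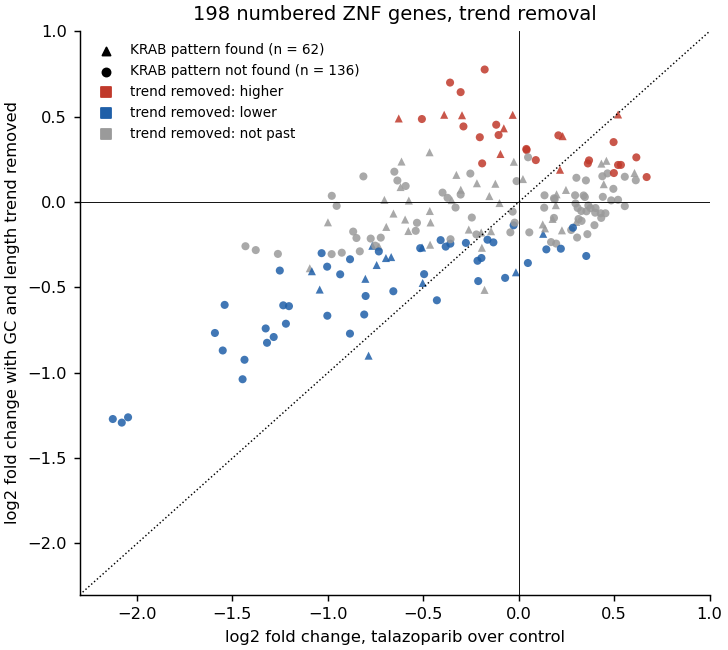
Log2 fold change of the 198 members with the trend over GC content and length removed (y axis) against the value without removal (x axis), coloured by the call with the trend removed; triangles mark members with the KRAB pattern and the dotted line marks equal values. The lowest 3 genes move to -1.26 to -1.29 on the y axis, 52 members keep their call, and the 5 called in opposite directions, among them ZNF207 at -0.36 and 0.70, lie in the upper left and lower right.

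By protein class, KRAB and other members both held more genes called lower than higher. Among all genes with a mean count of at least 200, 32.1% were higher and 34.4% lower, and with the trend removed 25.6% and 26.1%. Of 62 members with the pattern 8 (12.9%) were higher and 26 (41.9%) lower. Their median log2 fold change was -0.28 and their median GC content 47.3%. Of 136 without the pattern 37 (27.2%) were higher and 57 (41.9%) lower (median -0.19, GC content 51.4%). With the trend removed the counts were 9 higher and 12 lower with KRAB, and 21 higher and 44 lower without it. The difference between the classes was not tested. The pattern misses some KRAB domains: a wider one, chosen after the data were seen, matched 74 members, of which 10 were higher and 32 lower, and 14 and 13 with the trend removed.

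By number of fingers, 15 of 40 members with 1 to 4 fingers were higher and 14 lower. With 5 to 9 fingers 14 of 70 were higher and 32 lower, with 10 to 14 fingers 11 of 58 and 24, and with 15 to 33 fingers 5 of 23 and 13. Median GC content was 52.2%, 49.0%, 47.2% and 47.5% from the fewest fingers to the most, and no class was tested against another. Among all genes with a mean count of at least 200, 32.1% were higher and 34.4% lower, and with the trend removed 25.6% and 26.1%. The 7 proteins with no matched finger gave no call in either direction without trend removal. With the trend removed 2 of them were higher and 2 lower. ZNF462, with the most fingers, had 8.25, 8.24 and 7.86 CPM with talazoparib, against 16.2, 22.3 and 18.7 CPM in control, and no library overlapped (log2 fold change -1.23 ± 0.14, adjusted p = 2.58e-05).

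On chromosome 19, home of the KRAB clusters, most members called were lower, whereas most other genes called were higher. Of 64 members there 17 were higher and 27 lower, with a median log2 fold change of -0.30 and a median GC content of 45.9%, whereas 506 of 822 other genes on the chromosome were higher and 26 lower (median 0.38, GC content 60.5%). With the trend removed, 11 of these members were higher and 10 lower (median -0.03). Within the chromosome, the 34 members with the KRAB pattern gave 2 higher and 18 lower, and the 30 without it 15 higher and 9 lower, with GC contents of 44.7% and 54.7%. On the other chromosomes 28 of 134 members were higher and 56 lower. Chromosome 16, chosen after the values were seen, held 21 members of which 11 were higher and 2 lower, at a GC content of 58.8%. With the trend removed 2 of these members were higher and 3 lower. The 591 other genes on chromosome 16 leaned the same way, with 41.6% higher and 17.4% lower (median 0.22, GC content 56.0%). With the trend removed 22.2% and 21.2% of them were called. None of these differences was tested.

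Promoters were GC-rich in members of either call. RefSeq promoter windows around the gene start, on GRCh38.p14, were matched for 169 members. Their median GC content was 67.0% in members called higher, 63.5% in members called lower and 65.7% over all tested genes with a window.

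Grouped by described role, the members tied to DNA damage or ADP-ribose were mixed. Of 6 such genes 1 was higher and 3 lower, and with the trend removed 1 was lower. For comparison, 32.1% of all genes with a mean count of at least 200 were higher and 34.4% lower. These shares were 25.6% and 26.1% with the trend removed. ZNF451, which acts with TDP2 on trapped topoisomerase 2 and as a SUMO ligase, had 6.98, 4.79 and 7.35 CPM with talazoparib, against 12.4, 18.4 and 18.9 CPM in control (log2 fold change -1.38 ± 0.20, adjusted p = 0.000153). All talazoparib libraries were lower, but with the trend removed the value was -0.28 ± 0.11 (adjusted p = 0.0543). ZNF281, a transcription factor linked to stem cell and epithelial-mesenchymal programmes, was at -0.88 ± 0.15 and kept its call with the trend removed, at -0.34 ± 0.10. ZNF827, a telomere-bound protein that recruits NuRD, was at -0.83 ± 0.21. ZNF668 was the one called higher, at 0.50 ± 0.09. ZNF384, which binds near broken DNA ends, was at -0.02 ± 0.08 and ZNF830 at -0.30 ± 0.13; neither passed. ZNF432, a reader of poly(ADP-ribose), and ZNF506 lay under the mean count of 200.

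Of the 10 listed repressors of retroelements or imprints, 4 were members, and 3 of them were lower. Their median GC content was 46.0%. Of all genes 29.9% were lower, and of the other genes in the lowest 4 GC deciles 61.0%. ZNF445, which maintains imprinting, had 10.7, 9.49 and 11.8 CPM with talazoparib, against 17.9, 20.3 and 19.4 CPM in control, with no overlap (log2 fold change -0.85 ± 0.13, adjusted p = 0.000141). ZNF587 was at -0.60 ± 0.11 and ZNF202 at -0.28 ± 0.10, and the call of ZNF202 was lost without talazoparib library 1 or 3 or control library 2 or 3 (-0.26 to -0.32). With the trend removed ZNF202 alone stayed lower, and ZNF320 was called higher; 99.48% of the 75-base stretches of ZNF320 transcripts also occur in transcripts of other genes, so its reads cannot be assigned with certainty. ZNF91, ZNF93, ZNF382, ZNF417, ZNF611 and ZNF765 lay under the mean count of 200.

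Members that work on RNA, ribosomes and translation split in both directions. Of 10 genes 3 were higher and 5 lower, and with the trend removed 4 were higher and 2 lower. All genes with a mean count of at least 200 gave 32.1% higher and 34.4% lower, and 25.6% and 26.1% with the trend removed. ZNF598, the ubiquitin ligase that senses collided ribosomes, had 114, 126 and 107 CPM with talazoparib, against 97.5, 87.8 and 91.2 CPM in control. The groups did not overlap and the log2 fold change was 0.33 ± 0.08 (adjusted p = 0.00517), but -0.11 ± 0.05 with the trend removed, which did not pass (adjusted p = 0.1). ZNF622 and ZNF593, described above, were the other members called higher. ZNF326, a subunit of the DBIRD complex that links RNA polymerase II to splicing, was at -0.81 ± 0.17, against 0.15 ± 0.11 with the trend removed, where it did not pass. ZNF346, which binds double-stranded RNA, was at -0.36 ± 0.13, and ZNF277, a partner of a small-subunit ribosomal protein, at -0.54 ± 0.20. Both calls were near the threshold: that of ZNF346 was lost without talazoparib library 1 or 3 or control library 2 or 3 (-0.31 to -0.36), and that of ZNF277 without talazoparib library 2 (-0.31) or any one control library (-0.54 to -0.64). The nucleolar protein ZNF330 and ZNF706 did not pass, at -0.19 ± 0.11 and -0.20 ± 0.08, but were called higher with the trend removed, at 0.23 ± 0.08 and 0.38 ± 0.09.

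Among 14 chromatin and growth regulators none was higher and 10 (71.4%) were lower, with a median log2 fold change of -0.62 and a median GC content of 45.8%. Of the other genes in the lowest 4 GC deciles, which reach 46.5%, 61.0% were lower, and of all genes 29.9%. Of the 14, 7 stayed lower with the trend removed while ZNF512 was called higher. ZNF644 and ZNF148, both called lower, had talazoparib means under 200 counts and so entered through their control libraries. ZNF24, a SCAN-domain protein, had 42.8, 32.3 and 47.0 CPM with talazoparib, against 78.6, 109 and 104 CPM in control (log2 fold change -1.25 ± 0.15, adjusted p = 5.08e-05). Every talazoparib library was well below the lowest control, and the value was -0.40 ± 0.06 with the trend removed (adjusted p = 0.000311). ZNF217, an oncogene product found with CoREST and LSD1, was at -0.59 ± 0.12, and ZNF148, also called ZBP-89, at -0.98 ± 0.17; with the trend removed they were at 0.09 ± 0.07 and 0.04 ± 0.12 and did not pass. ZNF143, which binds promoters at chromatin loops, was at -0.94 ± 0.17 and stayed lower with the trend removed, at -0.42 ± 0.13. ZNF516 and ZNF609 behaved likewise, at -0.66 ± 0.11 and -0.41 ± 0.09. ZNF592 was at -0.25 ± 0.09, a call lost without talazoparib library 3 (-0.17), control library 2 (-0.26) or control library 3 (-0.26). ZNF335, part of a histone methyltransferase complex, at 0.18 ± 0.09, ZNF703, an oncogene product of breast cancer, at 0.27 ± 0.15, and ZNF512, at 0.04 ± 0.08, did not pass. ZNF268 lay under the mean count, and no row was named ZNF518.

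The machinery that KRAB proteins call on was lower in more genes than it was higher. Of 27 co-repressor genes 6 (22.2%) were higher and 15 (55.6%) lower, against 26.8% and 29.9% of all genes, with a median log2 fold change of -0.23 and a median GC content of 47.6%. TRIM28 itself had 611, 646 and 568 CPM with talazoparib, against 542, 445 and 468 CPM in control. The groups did not overlap, and its log2 fold change was 0.33 ± 0.09 (adjusted p = 0.00685); the call was lost without control library 3 (0.27), and with the trend removed the value was -0.10 and did not pass. SETDB1 had 68.9, 76.8 and 64.2 CPM with talazoparib, against 62.6, 60.7 and 66.1 CPM in control, groups that overlapped, and did not pass (0.15 ± 0.09, adjusted p = 0.166).

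CBX5, the HP1 alpha protein, had 42.0, 36.8 and 37.7 CPM with talazoparib, against 75.3, 104 and 94.4 CPM in control (log2 fold change -1.23 ± 0.12, adjusted p = 1.26e-05). TASOR, the scaffold of the HUSH complex, had 18.9, 13.8 and 15.5 CPM with talazoparib, against 37.8, 54.7 and 48.3 CPM in control (log2 fold change -1.55 ± 0.15, adjusted p = 1.64e-05). Both were lower in every talazoparib library and stayed lower with the trend removed, at -0.33 and -0.62. SMARCAD1, a chromatin remodeller, was at -1.23 ± 0.14 and likewise stayed lower, at -0.51. ZMYM2, TRIM33 and the deacetylase HDAC2 were at -1.35, -1.08 and -0.87, and none passed with the trend removed. In that fit 4 co-repressor genes (14.8%) were higher and 8 (29.6%) lower, against 22.0% and 22.2% of all genes, and without it the 6 higher became 3 without control library 2 and 2 without control library 3.

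Other zinc finger families were defined by symbol. Of all genes tested 26.8% were higher and 29.9% lower, and with the trend removed 22.0% and 22.2%. Of the 215 numbered ZNF genes under a mean count of 200, 4 were higher and 123 lower, with a median log2 fold change of -0.80 and a GC content of 41.2%; with the trend removed 15 were higher and 47 lower. ZNF symbols with a letter suffix gave 4 higher and 19 lower of 26, ZBTB genes 7 and 19 of 39, ZFP genes 0 and 12 of 18, and ZSCAN genes 2 and 7 of 16. ZC3H genes, with CCCH fingers, gave 4 higher and 10 lower of 17. ZDHHC genes, the palmitoyltransferases, gave 5 and 8 of 21, or 23.8% and 38.1%, with a median of 0.13. With the trend removed, ZFP genes gave 0 higher and 6 lower, ZBTB genes 5 and 10, ZC3H genes 4 and 2, and ZDHHC genes 6 and 5. Median GC content was 42.0% for the suffixed symbols, 43.7% for ZBTB, 44.4% for ZFP, 46.2% for ZC3H, 47.7% for ZSCAN and 52.1% for ZDHHC. Of genes other than the members in the lowest 4 GC deciles, which reach 46.5%, 61.0% were lower. No family was tested against another.

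**Figure D5:**
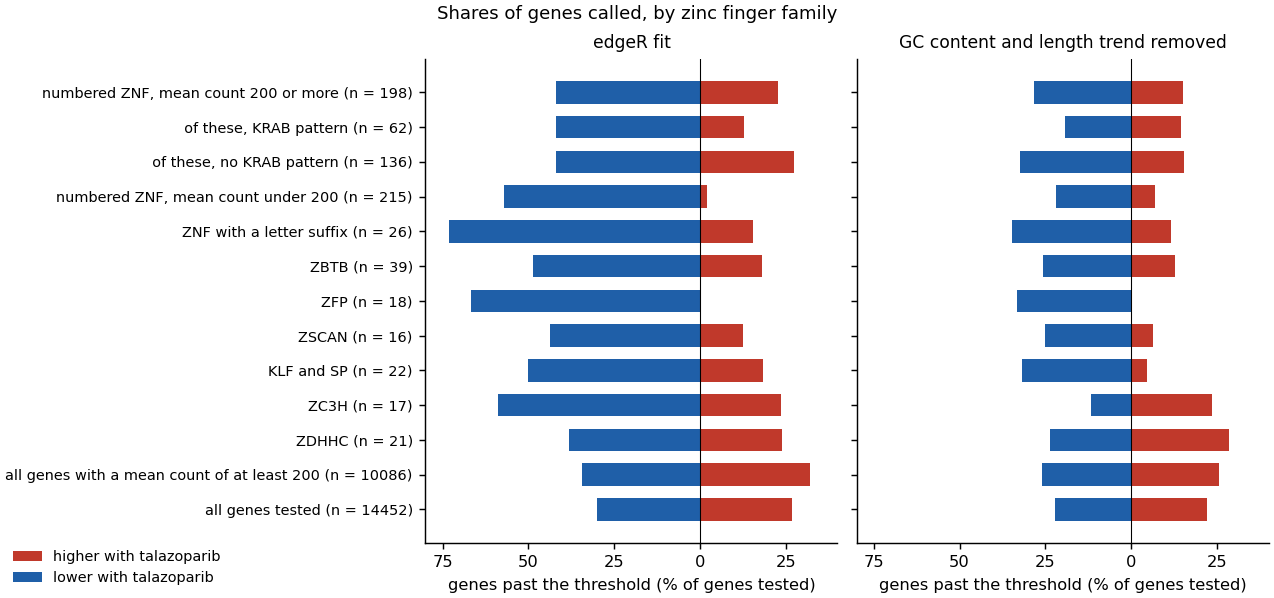
Share of genes called higher (right of 0) and lower (left of 0) with talazoparib, in % of genes tested, per zinc finger family and over all genes, without (left panel) and with (right panel) removal of the trend over GC content and length; n is that of the left panel. The 198 numbered ZNF genes are at 22.7% higher and 41.9% lower in the left panel and 15.2% and 28.3% in the right, and the all-gene bars are at 26.8% and 29.9%, then 22.0% and 22.2%.

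Zinc finger genes arose by duplication, so shared sequence can blur their counts. For 9 members at least 20% of the 75-base stretches of their transcripts also occur in transcripts of another gene: ZNF320, ZNF410, ZNF395, ZNF446, ZNF512, ZNF324, ZNF747, ZNF511 and ZNF775. Their values are uncertain to that extent, and 138 members shared no such stretch. The strand setting of the counting is not given in the sources used here, so reads from an overlapping antisense gene cannot be told apart from a member's own.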

How the data were processed

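The authors deposited whole-number counts per gene symbol and an FPKM table of the same genes and libraries. Per the submitters' processing notes, the tools were Trimmomatic, HISAT2, HTSeq and Cufflinks with GRCh38, and per the labels' protocols total RNA was extracted with TRIzol. The strand setting, annotation and versions were not given in the sources used here. Each deposited FPKM was the count over library total and a length per gene, and the lengths so implied (whole within 0.01 nt for 99.95% of 21065 genes) were used as gene lengths; 155 of the 198 members had one longer than their longest GENCODE transcript.

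Counts of all genes were fitted with edgeR 4.0.16 in R 4.3.3: filterByExpr (minimum count 10), TMM scaling and the robust quasi-likelihood test of talazoparib against control, adjusted by Benjamini-Hochberg over all genes tested at 0.05. CPM are per TMM-scaled library, and the marker levels per total count. SE is the absolute log2 fold change over the square root of F. The trend-removed fit added an offset per library and gene, from natural splines with 5 degrees of freedom over GC content and log2 length, for the 13694 genes (94.8%) with both values. Fits were tested on simulated data. Fingers were matched as a pair of cysteines and a pair of histidines at C2H2 spacing, and KRAB by the conserved core of its A box. Alternatives used DESeq2 1.42.0, limma 3.58.1 (voom), other scalings, count limits, a fold threshold, a replicate block and removal of each library.

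The members, lists and tests were chosen with earlier results of these data known. Named members are the 8 lowest and 8 highest fold changes past the test with no overlap, the 4 of highest CPM, the 3 on each side of the count limit, up to 4 called in opposite directions by the 2 fits, role lists, and from the co-repressor list the 6 of smallest p with TRIM28 and SETDB1. ZNF142, ZNF672 and chromosome 16 were added after values were seen. No test compared lists or classes.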

Additional observations from a re-analysis of the deposited data

How the results depend on the processing

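Among the 198 members, the number called higher (45) was 17 with a 1.2-fold threshold, 21 with the GC trend alone removed and 23 with the replicate block and both trends (GC content and length) removed. The number called lower (83) was 53 with the length trend alone removed, where 56 were higher, 48 with the block and both trends, 140 with a mean count of at least 100 and 43 with at least 500. The block alone gave 36 higher and 77 lower; same-numbered libraries did not deviate together (correlations -0.0943, -0.173 and 0.00391), so the numbers do not pair them, and no library was closest to its own number. With length alone removed the members' median log2 fold change was 0.02 and that of all genes 0.05. Leaving out 1 library gave 24 to 47 higher and 72 to 89 lower, and with both trends removed 19 to 31 and 34 to 58. These last, all but the one without control 1 chosen after seeing the data, were 24 higher without talazoparib library 1 or 2, 28 without talazoparib 3, 20 without control 2 and 19 without control 3, and 42, 52, 49, 39 and 34 lower in the same order of talazoparib 1 to 3 and control 2 and 3. The cause was not tested.

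Over all genes, 2043 were higher with the fold threshold, 2567 higher and 2576 lower with the block and trends, and 2613 to 3953 and 3726 to 4557 with 1 library left out. With the length trend alone removed, 3972 were higher and 3372 lower. Scaling alternatives moved the all-gene median by at most 0.07.

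Of the co-repressors, 1 was higher with the fold threshold, 2 with GC alone removed and 3 with the block and trends; 8 were lower with the trends removed, 7 with the block as well, and 8 without control library 1 as well. With 1 library left out 2 to 6 were higher.

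With the trend over GC content and length removed, 22.0% of all genes were higher and 22.2% lower. In that fit KRAB members gave 12 lower, other members 21 higher, and chromosome 19 members 11 higher and 10 lower. Numbered genes under 200 gave 15 and 47, suffixed ZNF symbols 9 lower, ZBTB 10 lower, ZSCAN 1 and 4, ZFP 6 lower, KLF and SP 1 and 7, ZC3H 2 lower, ZCCHC 1 and 2, ZDHHC 5 lower, and ZMYM with ZMYND 2 lower. The DNA damage list gave 0 higher and 1 lower, the retroelement list 1 and 1, the RNA list 2 lower and the chromatin list 1 higher. The lowest 4 GC deciles gave 15 higher and 24 lower, and the middle 3 gave 9 and 20. The highest 3 gave 6 and 12; without removal, leaving out 1 library gave them 21 to 40 higher.

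Among named genes past the threshold with or without the trend, log2 fold changes that turned round with it removed were ZNF524 at -0.02, ZNF207 at 0.70, ZNF268 at 0.46, ZNF677 at 0.51, ZNF141 at 0.49, ZNF248 at 0.49, ZNF593 at -0.32, ZNF672 at -0.15, ZNF320 at 0.51, ZNF598 at -0.11, ZNF326 at 0.15, ZNF330 at 0.23, ZNF706 at 0.38, ZNF217 at 0.09, ZNF148 at 0.04, HDAC2 at 0.08 and TRIM28 at -0.10.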
